A study of Mus musculus with 16 samples.

Results

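Metabotropic glutamate receptors are G protein-coupled receptors for glutamate, the main excitatory transmitter of the hippocampus. Here 6 receptor genes were followed, Grm2, Grm3, Grm4, Grm5, Grm7 and Grm8, of 18193 genes with a probe set of their own. The members were every probe set whose single gene symbol in the platform annotation is one of these 6. That gave 9 probe sets of 45037, with 3 for Grm7, 2 for Grm5 and 1 for each of the others. Another probe set shares its annotation between Grm2 and Gm28111, had a mean of 2.09 log2 units and was left out. All 9 had a mean over the arrays above the filter on low values at 3.58 log2 units, and the lowest, a Grm7 probe set, stood just above it at 3.65.

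Affymetrix arrays were run on hippocampal RNA of 16 female mice of the 3xTg-AD line, 1 array per numbered animal. All animals were 14 months old. The 3xTg-AD line carries mutant human APP and tau transgenes driven in neurons by a Thy1 promoter, together with a mutant presenilin 1 allele, and serves as a model of Alzheimer's disease. Both groups carry these alleles, so no comparison with non-transgenic mice is made here. The 8 control animals received a control diet. The 8 PIO animals received pioglitazone, an agonist of the nuclear receptor PPAR gamma, in the diet at 84 ppm, a daily dose of roughly 18 mg per kg. Feeding started at 10 months of age and lasted about 14 weeks. Whole hippocampus was measured, so fewer cells of a type and less RNA per cell cannot be told apart.

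The family falls into 3 classes by sequence and coupling. Group I, here Grm5, couples through Gq to phospholipase C and calcium release, and its product sits mainly at the edge of the postsynaptic density, bound to Homer scaffolds. Group II, Grm2 and Grm3, and group III, Grm4, Grm7 and Grm8, couple through Gi/o to lower cyclic AMP and mostly restrain transmitter release from axon terminals. Grm3 is also known from astrocytes, and its receptor responds to the peptide N-acetylaspartylglutamate (NAAG) besides glutamate.

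All 7 pyramidal neuron markers, all 8 dentate granule cell markers and all 8 markers of CA2 and CA3 that are on the array were above the filter. So were 9 of 9 thalamic and 13 of 14 choroid plexus markers, and this count therefore does not separate hippocampus from its neighbours. Markers of neighbouring tissue varied between arrays, and those above the filter all had a higher PIO mean. These were 9 of 9 striatal, 9 of 9 thalamic and 13 of 13 choroid plexus markers, where 47.3% of all genes were lower. Their median differences between PIO and control were 0.30, 0.18 and 1.16 log2 units, and none had a limma adjusted p under 0.05. Their part in the receptor differences was not tested beyond the covariates given below. The choroid plexus list mean, relative to all arrays, ran from -3.47 to 2.61 log2 units and was above 0 in 10 arrays. The striatal list mean was highest in PIO animals 15 and 14, at 1.20 and 1.01, against at most 0.45 in the other animals. Of the 11 striatal markers on the array 9 were above the filter, while Drd2 and Ido1 were not. The thalamic list mean was highest in PIO animal 16, at 1.21. Array medians lay between 5.64 and 5.76 log2 units. With 8 arrays a group, their number sets how precisely any difference can be known.

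The diets were compared to ask whether pioglitazone changed the level of these receptors. None of the 9 probe sets had a limma p under 0.05 after adjustment, and their adjusted p ran from 0.628 to 0.990. Among all probe sets tested 0 of 27022 passed, a background of 0%, while 1999, or 7.4%, had an unadjusted p under 0.05. Among the members 1 of 9 had an unadjusted p under 0.05, the Grm3 probe set. The PIO mean was higher in 6 of the 9 and lower in 3, and the median difference was 0.042 log2 units against 0.0018 over all probe sets tested. The median size of the difference was 0.059 log2 units in the members and 0.056 over all probe sets tested. Each difference is the PIO mean minus the control mean in log2 units, and its SE is the moderated one of limma. Complete separation of the diet groups was seen in 0 of the 9 and in 0.0259% of all probe sets. A share this close to the background is not a result about the family.

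**Figure D1:**
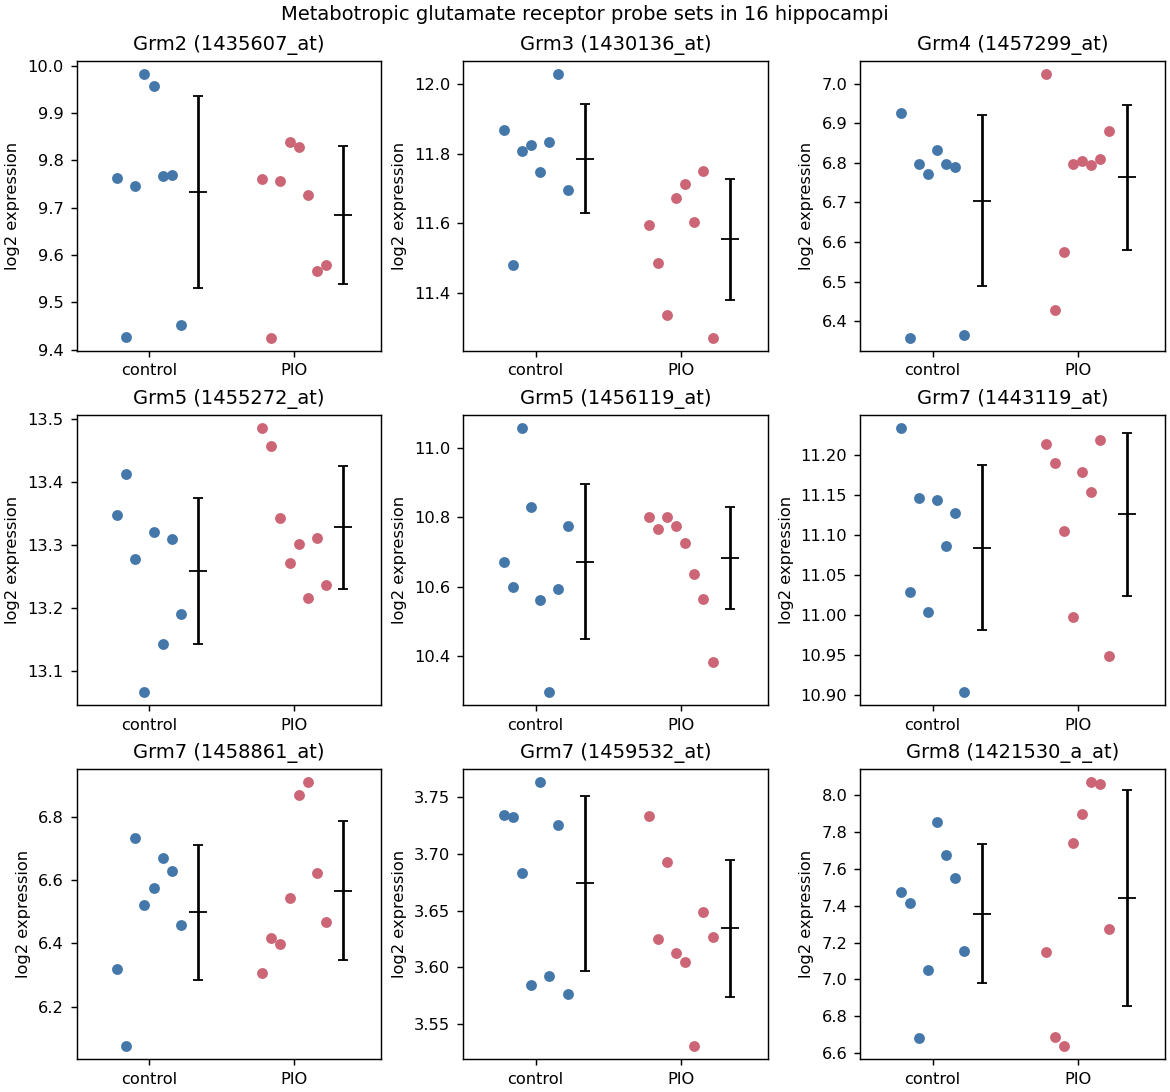
Expression (log2 units, vertical axes that differ between panels and do not start at 0) of the 9 receptor probe sets in 8 control and 8 PIO hippocampi. Each point is 1 animal and the bar beside each group is its mean ± SD; the groups overlap in every panel, and for Grm3 all 8 PIO points lie below the control median of 11.82.

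Grm3, a group II receptor of neurons and astrocytes, had the smallest p of the family. Control animals lay between 11.48 and 12.03 log2 units, with a median of 11.82. PIO animals lay between 11.27 and 11.75, with a median of 11.60. All 8 PIO animals were below the control median, and 5 of 8 controls were above the highest PIO animal. The groups overlapped because control animals 2, 8 and 5, at 11.48, 11.70 and 11.75, lay within the PIO range. PIO animals 16 and 11 were lowest. The mean was 11.79 ± 0.16 for the control diet and 11.55 ± 0.17 for PIO (SD, n = 8 animals per diet). The difference was -0.23 (SE 0.080), a level 0.852 times that of controls with a 95% confidence interval of 0.758 to 0.958. Its limma p was 0.0104, which ranked 442 of 27022, and the adjusted p over all probe sets was 0.628. The difference therefore failed the correction. Array batches were read from a code that the labels do not explain. Within the largest array batch of 5 controls and 6 PIO animals the difference was -0.18 (SE 0.085). There the unadjusted p rose to 0.0581. Within arrays numbered 10 to 24, which hold 4 controls and 6 PIO animals, it was -0.27 (SE 0.11).

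Marker lists of glia were read beside Grm3. None of their genes had a limma adjusted p under 0.05. Among astrocyte markers 11 of 13 had a lower PIO mean, where 47.3% of all genes did, and the list mean ran from -0.069 to 0.15 log2 units in controls and from -0.24 to 0.080 with PIO. All 13 measured oligodendrocyte and myelin markers had a lower PIO mean, with list means of -0.15 to 0.33 in controls and -0.56 to 0.14 with PIO. So did 12 of 14 microglial markers and 6 of 8 markers of oligodendrocyte precursors, with median differences of -0.19 and -0.10. From animal to animal within the diets the lists did not run one way with Grm3. With diet group means subtracted, r with Grm3 was -0.43 for astrocytes, -0.53 for myelin, 0.11 for microglia and 0.28 for precursors. PIO animal 15, lowest for the astrocyte and myelin lists, had the highest Grm3 level of the PIO animals. PIO animal 16, lowest for Grm3, had the highest thalamic list mean, at 1.21. PIO animal 11, next lowest, had the highest choroid plexus list mean, at 2.61. Outside glia, r with Grm3 within the diets was -0.53 for the thalamic list and 0.66 for the GABAergic interneuron list. Without subtracting the diet group means it was -0.57 and 0.42 over 16 animals. Leaving out the 2 animals farthest from the median of each list mean lowered these to -0.28 and 0.19 in turn. With the astrocyte list mean as a covariate the Grm3 difference between diets was -0.29 (SE 0.081), and with the myelin list mean it was -0.33 (SE 0.083). With the thalamic and the choroid plexus list means in turn it was -0.18 (SE 0.075) and -0.18 (SE 0.072). The part of these cells in the result was not tested beyond these terms.

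**Figure D2:**
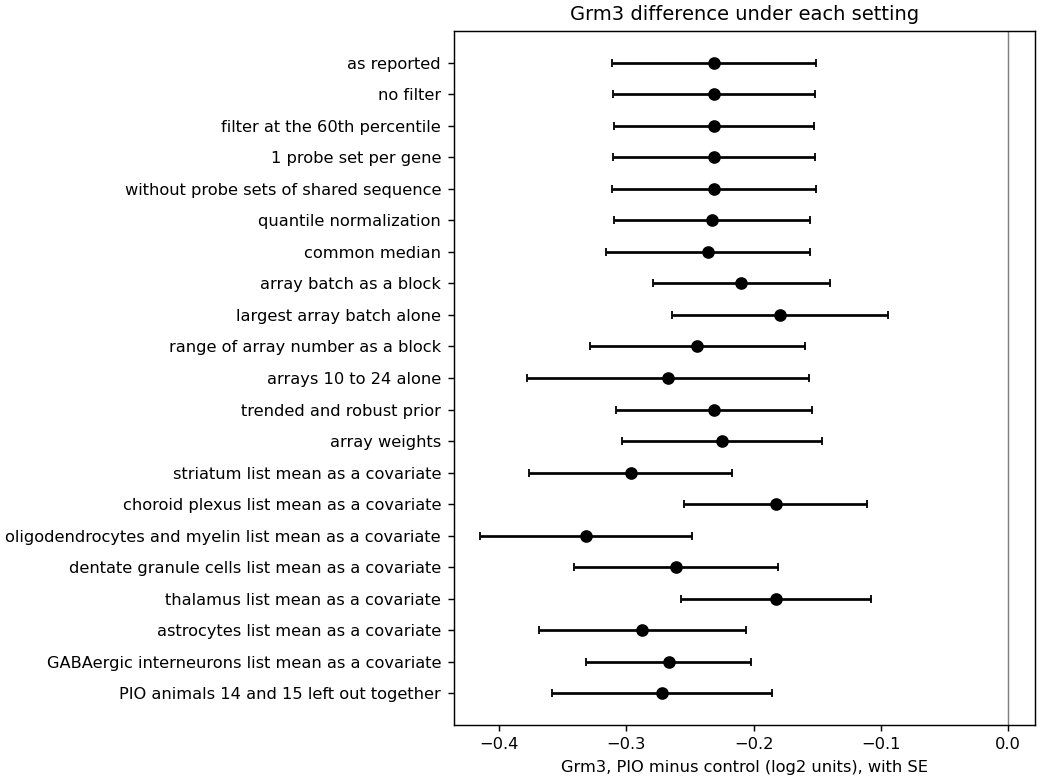
Difference of Grm3 between PIO and control animals (log2 units, horizontal axis) as reported and under 20 other settings (vertical axis). Points are the limma estimate and bars its SE; all lie below 0, from -0.33 with the myelin list mean as a covariate to -0.18 in the largest array batch alone.

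Grm2, the other group II receptor, is concentrated on axon terminals and is strongly expressed by dentate granule cells. Control animals lay between 9.43 and 9.98 log2 units, with a median of 9.76, and PIO animals between 9.43 and 9.84, with a median of 9.74. The ranges coincided almost completely, with control animals 2 and 8 and PIO animal 10 below 9.5 and the others above it. The difference was -0.047 (SE 0.085), with a 95% interval of -0.23 to 0.13 log2 units (limma adjusted p = 0.921). In folds, the interval spans PIO levels of 0.854 to 1.10 times the control level.

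Grm5, the group I receptor, was read by a pair of probe sets. On the first, 1455272_at, control animals lay between 13.07 and 13.41 log2 units with a median of 13.29, and PIO animals between 13.22 and 13.48 with a median of 13.31. PIO animals 9 and 10 were above every control and the remaining 6 lay within the control range. The difference was 0.069 (SE 0.055, limma adjusted p = 0.795), the second smallest p of the members. On the second, 1456119_at, control animals lay between 10.30 and 11.06 with a median of 10.63, and PIO animals between 10.38 and 10.80 with a median of 10.75. All PIO animals lay inside the control range, and controls spread wider, with SDs of 0.22 and 0.15. The difference was 0.0094 (SE 0.091, limma adjusted p = 0.990).

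Among group III receptors, Grm7 sits in the active zone of axon terminals and has a low affinity for glutamate. Its probe set with the highest mean, 1443119_at, lay between 10.90 and 11.23 log2 units in controls, with a median of 11.11, and between 10.95 and 11.22 with PIO, with a median of 11.17. No PIO animal lay outside the control range. The difference was 0.042 (SE 0.053), with a 95% interval of -0.070 to 0.15 (limma adjusted p = 0.878). The second probe set, 1458861_at, had control values of 6.08 to 6.74 and PIO values of 6.31 to 6.91, with PIO animals 14 and 13 above every control, and a difference of 0.069 (SE 0.10). The third, 1459532_at, stayed between 3.53 and 3.76 in all 16 arrays, with a difference of -0.040 (SE 0.040). Its whole range of 0.23 log2 units spans the filter at 3.58, which makes it the least informative of the 9.

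Grm4, a presynaptic receptor best known from cerebellar granule cells, was measured by 1 probe set. Control animals lay between 6.36 and 6.93 log2 units with a median of 6.79, and PIO animals between 6.43 and 7.02 with a median of 6.80. In each group most animals stood near 6.8, while control animals 2 and 8 and PIO animals 10 and 11 were below 6.6. The difference was 0.059 (SE 0.095), with a 95% interval of -0.14 to 0.26 (limma adjusted p = 0.907).

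Grm8, a group III receptor with a high affinity for glutamate, varied most between animals. Control animals lay between 6.68 and 7.86 log2 units with a median of 7.45, and PIO animals between 6.64 and 8.07 with a median of 7.51. PIO animals 13, 14 and 15 were above every control and PIO animal 11 was below every control, so PIO animals stood on both sides of the control range. The SD over all 16 arrays was 0.48, against 0.070 to 0.21 for the other 8 probe sets. The difference was 0.082 (SE 0.23), with a 95% interval of -0.40 to 0.57, which is a fold of 0.757 to 1.48 (limma adjusted p = 0.956). Its direction changed with the animals used, at -0.13 (SE 0.22) without PIO animals 14 and 15 and -0.058 (SE 0.30) in the largest array batch.

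**Figure D3:**
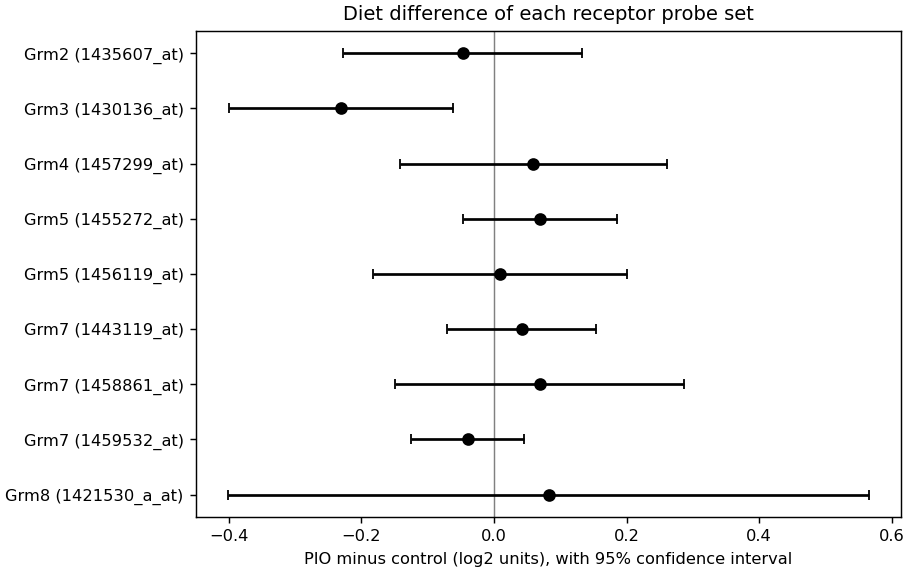
Difference between PIO and control animals (log2 units, horizontal axis) for each of the 9 receptor probe sets (vertical axis), with limma estimates as points and 95% confidence intervals as bars, 8 animals per group. The Grm3 interval, -0.40 to -0.062, is the only one that does not include 0, before any adjustment for the number of probe sets, and the Grm8 interval is the widest.

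The spread of Grm8 between animals varied with 2 lists of cell type markers. The 6 receptors, each by its probe set with the highest mean, were set against the array means of 12 marker lists, 72 relations in all, and the p of each came from 100000 permutations, adjusted over the 72. The choroid plexus list was left out because its arrays fall into separate clusters. Of the 72 relations 2 had an adjusted p under 0.05 for both Pearson's r and Spearman's rho, and both were of Grm8. With the GABAergic interneuron list, r was 0.84 (permutation p = 1.0e-04, adjusted p = 0.00720) and rho 0.82 (adjusted p = 0.0166) over 16 animals. With the dentate granule cell list, r was -0.79 (permutation p = 2.7e-04, adjusted p = 0.00972) and rho -0.78 (adjusted p = 0.0209).

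PIO animals 14 and 15 stood apart on the dentate list, at -0.52 each against -0.26 in the next animal, control animal 5, and are also the animals with the highest striatal markers. Without them r was 0.78 for interneurons and -0.69 for the dentate list. PIO animals 10 and 11 had the lowest interneuron list means and among the lowest Grm8 levels, and PIO animals 14 and 15 had the lowest dentate list means and the highest Grm8 levels. PIO animals 14 and 15 also had the highest interneuron list means, at 0.16 and 0.12. The part of striatal tissue in these relations was not tested beyond leaving these animals out. Without the 2 animals farthest from the median of the list mean, r was 0.75 for interneurons, and for the dentate list those are PIO animals 14 and 15. With the diet group means subtracted r was 0.84 and -0.79. In the largest array batch of 11 animals r was 0.84 and -0.76, and among arrays numbered 10 to 24 it was 0.94 and -0.72. The relation held in each diet group, at 0.68 in controls and 0.91 with PIO for interneurons and at -0.82 and -0.79 for the dentate list.

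Single genes of the lists showed the same picture to a varying degree. Of 13 interneuron genes 12 had a positive r with Grm8, with a median of 0.49. Vip, the peptide of a class of interneurons that mostly contact other interneurons, had the highest, 0.79, followed by Npy at 0.64, while Pvalb, the marker of fast-spiking basket cells, was at -0.024. Lhx6, Dlx2 and Gad1 were also low, at 0.17, 0.22 and 0.24. Of 8 dentate genes 6 had a negative r, with Prox1, the transcription factor that sets granule cell identity, at -0.83 and the desmosomal gene Dsp at -0.82. The other 2 went the other way, Calb1 at 0.58 and Plk5 at 0.11. These are descriptions across 16 arrays, whose batches were read from a code that the labels do not explain.

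**Figure D4:**
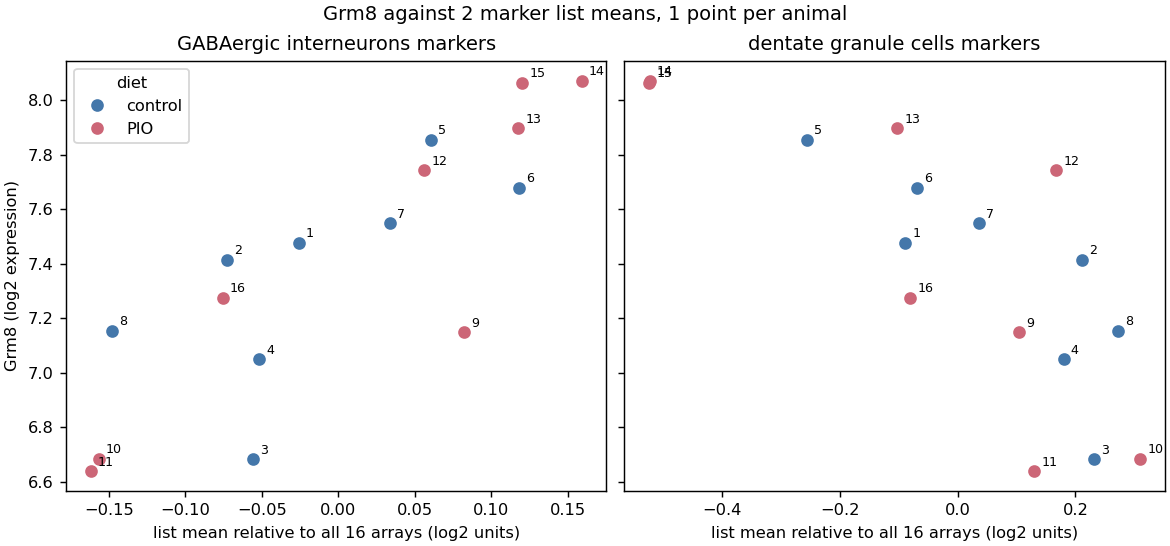
Grm8 level (log2 expression, vertical axis) against the array mean of the GABAergic interneuron markers (left) and the dentate granule cell markers (right), both relative to all 16 arrays (log2 units), with 1 numbered point per animal coloured by diet. Grm8 rises along the interneuron mean (r = 0.84) and falls along the dentate mean (r = -0.79), with control and PIO animals intermixed.

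Other lists of principal cells and glia ran the same way as the dentate one without passing the threshold. For CA1 pyramidal cells r was -0.68 (permutation adjusted p = 0.0578), for astrocytes -0.65 (permutation adjusted p = 0.0758) and for pyramidal neurons -0.63 (permutation adjusted p = 0.0887). Without PIO animals 14 and 15 the r of these lists was weaker, at -0.50, -0.46 and -0.48. The dentate list is thus not set apart from these, and the difference between lists was not tested. With the striatal list mean r was 0.56 (permutation p = 0.0208, adjusted p = 0.150), but 0.20 without PIO animals 14 and 15, so that relation rested on those animals. By array number, which the labels do not explain, Grm8 averaged 7.08 ± 0.34 log2 units (SD) in the 6 arrays numbered 1 to 6 and 7.59 ± 0.45 in the 10 arrays numbered 10 to 24. The diet-adjusted difference was 0.53 (SE 0.21), with an unadjusted p of 0.0246 and an adjusted p of 0.385 in limma. The second Grm5 probe set differed by -0.19 (SE 0.087, unadjusted p of 0.0433) and the second Grm7 probe set by 0.21 (SE 0.100, unadjusted p of 0.0471). These 3 of 9 compare with 10.8% of all probe sets at an unadjusted p under 0.05 in that comparison, and none of the 3 passed the adjusted threshold, as 0.0037% of all probe sets did.

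Where a gene had several probe sets, they did not follow each other closely from animal to animal. The pair of Grm5 probe sets had r = 0.18 (permutation p = 0.512) and rho = 0.071 over 16 animals. The Grm7 probe set with the highest mean had r = 0.19 with the second (permutation p = 0.486, rho = 0.065) and r = 0.38 with the third (permutation p = 0.152, rho = 0.39). The second and the third had r = -0.53 (permutation p = 0.0334, rho = -0.47). The third probe set had a whole range of 0.23 log2 units around the filter, which limits what its pairs can show. How closely probe sets of other genes follow each other was not tested. Adjusted over the 4 pairs, the p of r was between 0.134 and 0.512, so none passed. Without the 2 animals farthest from the median of the first-named probe set, r was 0.31 for Grm5 and 0.14, 0.24 and -0.29 for the pairs of Grm7. In the largest array batch r was 0.40 for Grm5 and 0.12, 0.16 and -0.70 for Grm7. The differences between diets were 0.069 and 0.0094 for Grm5 and 0.042, 0.069 and -0.040 for Grm7. Each had a 95% interval that includes 0, and whether these differences agree between probe sets was not tested.

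**Figure D5:**
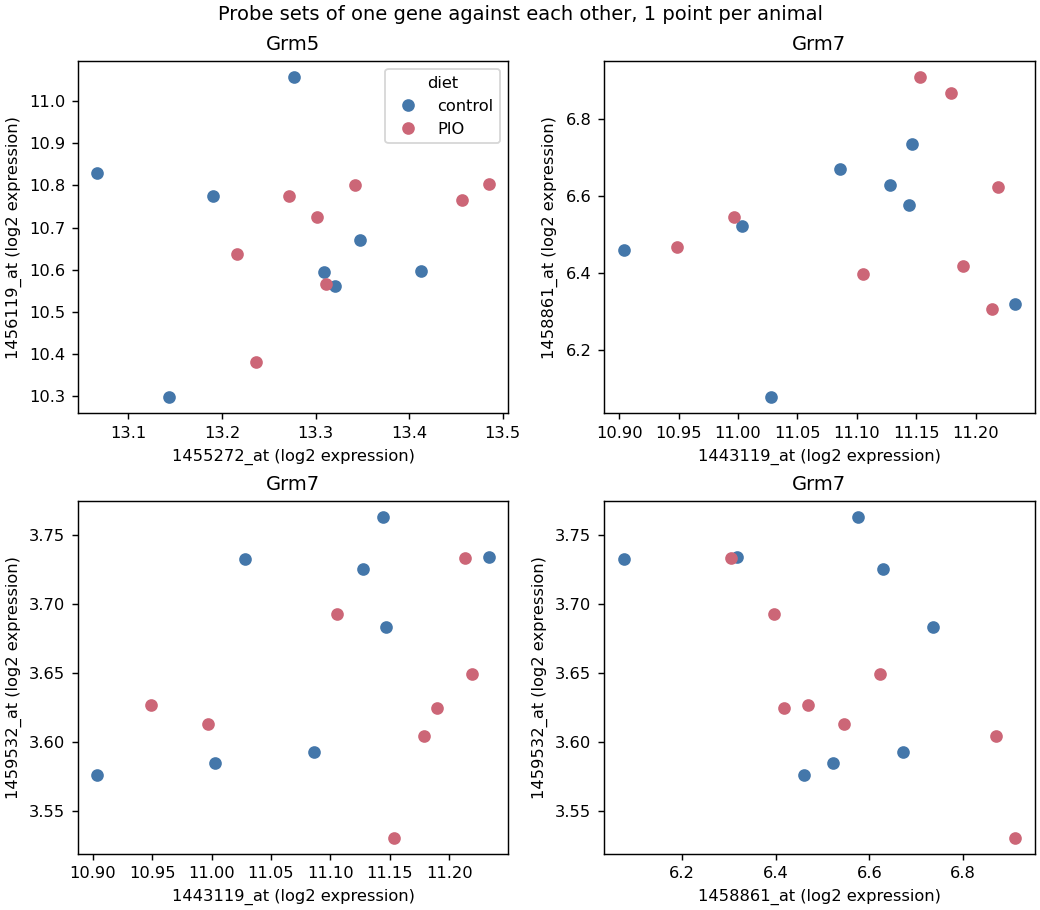
Log2 expression of probe sets of the same gene against each other, 1 pair for Grm5 and 3 pairs for Grm7, with 1 point per animal coloured by diet. No pair forms a tight line; r is 0.18 for Grm5 and 0.19, 0.38 and -0.53 for Grm7.

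The 6 genes varied together to different degrees. Over the 15 pairs of genes r ran from -0.36, between Grm2 and Grm5, to 0.66, between Grm2 and Grm4, and 11 were above 0. Grm5 and Grm7 had r = 0.54. With diet group means subtracted, Grm2 and Grm4 were at 0.70, and Grm3 was between 0.46 and 0.52 with Grm2, Grm4, Grm7 and Grm8. Control animal 2 and PIO animal 10 were low for both Grm2 and Grm4. Of 12265 other genes, with diet group means subtracted, Grm8 varied most like Plekho1 and Ptpn5, each at r = 0.91, and the perineuronal net gene Ncan at 0.90. Ptpn5 encodes a tyrosine phosphatase that is enriched in striatal neurons. Grm4 varied most like Sult2b1 (r = 0.93), the secreted synaptic protein gene Lgi2 (0.89) and the synapse organizer Cbln1 (0.88). Grm3 varied most like Adam19 (r = 0.89), Dusp8 (0.86) and Zmat3 (0.86). Grm2 varied most like Ppp2r5b (r = 0.86), Pex5 (0.84) and Syngr1 (0.82). Grm5 varied most like Kbtbd7 (r = 0.92), C230091D08Rik (0.89) and Mib1 (0.88). Grm7 varied most like 4632404H12Rik (r = 0.85), the myosin motor gene Myo5a (0.81) and Ccdc88a (0.81). These were picked as the highest of many correlations over 16 arrays and carry no test.

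The signalling partners were read on 71 genes above the filter, each by its probe set with the highest mean. By limma 0 had an adjusted p under 0.05. At an unadjusted p under 0.05 there were 6 lower and 2 higher with PIO, 11.3% of the 71 against 6.71% of all 12266 genes read the same way, which split into 3% lower and 3.71% higher. The median difference was -0.024 log2 units, against 0.0045 over all genes.

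For group I signalling, 14 of 18 genes of Gq, phospholipase C and the Homer scaffold had a lower PIO mean, against 47.3% of all genes, with a median of -0.052. Only Trpc5, a cation channel opened downstream of Gq, had an unadjusted p under 0.05, with a difference of -0.34 (SE 0.14, limma adjusted p = 0.649). Gnaq, the Gq alpha subunit, differed by -0.017 (SE 0.036), Homer1 by -0.068 (SE 0.089), Homer2 by -0.059 (SE 0.040) and the protein kinase C gene Prkcb by -0.070 (SE 0.048).

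For the Gi/o arm, 13 of 27 genes were higher and 14 lower, with a median of -0.0030. Adcy2, an adenylyl cyclase, had a mean of 10.83 ± 0.13 log2 units on the control diet and 10.62 ± 0.16 on PIO (SD, n = 8 animals per diet), a difference of -0.20 (SE 0.070, limma adjusted p = 0.628). The G protein subunit genes Gng2 and Gnb4 differed by 0.11 (SE 0.044) and 0.45 (SE 0.21), and Gnb4 spread between 7.65 and 9.30 among PIO animals. Gnao1, the abundant Go alpha subunit of brain, differed by -0.013 (SE 0.047).

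Of 15 receptor partners, desensitization genes and NAAG enzymes, 8 were higher and 7 lower. Nat8l, which makes the N-acetylaspartate used for NAAG, lay between 11.62 and 11.98 log2 units in controls and between 11.56 and 11.83 with PIO, with medians of 11.85 and 11.71. All 8 PIO animals were below the control median, and the difference was -0.15 (SE 0.051, limma adjusted p = 0.628). Arrb1, a beta-arrestin that uncouples receptors, differed by -0.12 (SE 0.045, limma adjusted p = 0.631), with 7 of 8 PIO animals below the control median. Naalad2, a NAAG-cleaving peptidase, differed by -0.30 (SE 0.16). Of the other NAAG enzymes, Rimklb went the other way at 0.15 (SE 0.092). Rimkla differed by -0.041 (SE 0.089) and Folh1 by -0.039 (SE 0.18).

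Of 11 genes of glutamate release and clearance, 6 were higher and 5 lower. Slc1a1, the neuronal glutamate transporter, differed by -0.13 (SE 0.048) and Slc1a2, the main astrocytic one, by -0.12 (SE 0.051), with limma adjusted p of 0.631 and 0.649. Slc38a1, a glutamine transporter, differed by -0.084 (SE 0.055).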

How the data were processed

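The deposited table gives each probe set a log2 value on each array, as the range of the values shows. The authors' processing notes name MAS5, GCRMA and R 2.7.1 with no role, per the submitters' processing notes, so the method behind the values is unknown here. GCRMA compresses unexpressed probe sets into a low band and can enlarge differences just above it. The values were used as deposited, with no pseudocount and no further scaling. Of 45101 probe sets, 64 hybridization controls were left out, and those with a mean above the 40th percentile were tested, 27022 in all. Gene symbols came from the platform annotation.

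Diet groups were compared in R 4.3.3 with limma 3.58.1 (lmFit, eBayes), using diet as the sole term, and p-values were adjusted by Benjamini-Hochberg over all probe sets tested. The fit was checked on simulated data with independent noise and changes larger than any member difference. That check therefore says nothing on differences of the size seen in the members. Relations between animals used 100000 two-sided permutations. A marker list mean is the mean over the list's genes of each array's deviation from the gene's mean over 16 arrays. Each label numbers a separate animal, so the animal is the replicate. The code that closes an array description was taken for its batch, although no source used here explains it. The members, gene lists and tests were chosen with earlier results of these data known. Genes named were the members, the 3 of each pathway list with the smallest p, Homer1, Gnaq, Gnao1 and Slc1a2, and the 3 genes most like each member. Rimklb, Rimkla and Folh1 were added after their values were seen. Single genes of the interneuron and dentate lists, and the relations, the array number comparison and the astrocyte and interneuron covariates, were chosen after their values were seen. Coordinates are left out because the labels name no genome build.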

Additional observations from a re-analysis of the deposited data

How the results depend on the processing

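No member passed the adjusted threshold under any of the 20 other settings that tested it (the stricter filter and 1 probe set per gene leave some out), or without any 1 animal, and neither did any other probe set. The number of members at an unadjusted p under 0.05 was 1, the Grm3 probe set, except in the largest array batch, where it was 0. Grm3 stayed lower with PIO in every setting, between -0.33 and -0.18, and between -0.27 and -0.19 without 1 animal. Of the small differences, Grm8 turned negative in 8 settings: -0.058 in the largest array batch, -0.050 with the range of array number as a block, -0.13 without PIO animals 14 and 15, and -0.15, -0.22, -0.11, -0.18 and -0.052 with the striatal, myelin, dentate, astrocyte and interneuron list means as covariates. Grm4 was -0.0046 in the largest batch and -0.021 with the myelin covariate. The Grm7 probe set 1443119_at was -0.023 and 1458861_at -0.032 with the myelin covariate, and the latter -0.012 with the striatal one. Grm2 was 0.0095 with the choroid plexus covariate. Without 1 animal, Grm8 ranged from -0.014 to 0.20 and the Grm5 probe set 1456119_at from -0.044 to 0.065. The astrocyte and interneuron covariates and all settings of the Grm8 relations were chosen after seeing the data. No paired analysis was possible because no animal number occurs in both diet groups. Signal over background could not be judged, as detection calls were not used here.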
